A study of Mus musculus with 3 samples.

Results

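The laminin chains are the genes whose products assemble into laminins, and they were described in glomeruli, the filtering capillary tufts of the kidney. The members were the 9 chains Lama1, Lama2, Lama3, Lama4, Lama5, Lamb1, Lamb2, Lamb3 and Lamc1, taken as every probe set whose only gene symbol in the platform annotation was one of these. They comprise 9 of 18194 genes and 17 of 45101 probe sets on the array. Each array measured glomeruli isolated from 1 nondiabetic male mouse of the inbred FVB/NJ strain, killed at 8 weeks, and there were 3 such mice. These mice carried no stated transgene and received no treatment other than a standard diet. They are the control strain of a comparison with diabetic OVE26 mice, which were not analysed here, so all statements concern levels in control glomeruli and the spread between the 3 mice. Many isolated glomeruli were pooled per mouse according to the labels, and every cell type of the tuft contributes RNA to such a pool, so that fewer cells of a type and less RNA per cell cannot be told apart.

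Laminins are cross-shaped secreted heterotrimers of an alpha, a beta and a gamma chain, named after the chains they hold. They polymerise on the cell surface and form, with type IV collagen, nidogens and heparan sulfate proteoglycans, the sheet of a basement membrane. The mature glomerular basement membrane, which lies between podocytes and fenestrated endothelium, contains mainly laminin-521, made of the chains encoded by Lama5, Lamb2 and Lamc1, and loss of LAMB2 causes a congenital nephrotic syndrome in humans. The immature membrane holds laminins with the alpha1 and beta1 chains, which are replaced as the glomerulus matures, while the mesangium keeps laminins with other alpha chains and beta1.

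The upstream sequences of 3 chains are shown because the sequence at hand reached well ahead of their annotated start. The choice did not rest on the order of the mice described further on. Lama5 and Lamb2 were highest in mouse 2, and Lamb1 was lowest there. Lama2, also lowest there, is not printed because its window barely reaches ahead of its start. Promoter windows of 300 bases from RefSeq (build GRCm38.p6) were at hand for 5 of the 9 chains, and only the part of a window ahead of the gene's outermost annotated start is printed. It is given 5′ to 3′ on the strand of the gene, with matches on either strand to the GC box motif GGGCGG, to the 5-letter motif of the CCAAT box, or to the TATA box motif TATAAA in capitals. The matches shown do not overlap.
Lama5, chr2:180225905-180226109, minus strand: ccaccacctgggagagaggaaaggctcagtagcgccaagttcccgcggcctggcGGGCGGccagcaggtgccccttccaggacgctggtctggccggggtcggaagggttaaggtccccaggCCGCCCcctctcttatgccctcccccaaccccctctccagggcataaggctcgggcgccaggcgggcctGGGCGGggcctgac
Lamb2, chr9:108479612-108479846, plus strand: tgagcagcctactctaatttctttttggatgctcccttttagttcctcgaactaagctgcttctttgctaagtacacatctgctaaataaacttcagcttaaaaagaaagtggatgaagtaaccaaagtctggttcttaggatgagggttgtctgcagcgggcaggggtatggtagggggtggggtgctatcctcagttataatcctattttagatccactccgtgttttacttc
Lamb1, chr12:31265043-31265145, plus strand: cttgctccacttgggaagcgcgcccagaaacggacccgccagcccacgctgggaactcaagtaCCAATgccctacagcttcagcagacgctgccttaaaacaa
The 205 printed bases of Lama5 held 3 GC boxes and were 71.7% G or C. The 235 bases of Lamb2 held none of the 3 motifs and were 43.0% G or C. In the whole 300-base windows Lama5 had 4 GC boxes, Lamb1 had 2 and a CCAAT box, and Lamb2 had no match. Lama2 had 1 GC box, and the windows of Lamb3 had no match. A GC box was found in 35.7% of all 32851 promoter windows of that length, a CCAAT box in 37.4% and a TATA box in 13.6%. Such matches describe letters in a window, and their absence says nothing about a factor. Lama5 and Lamb2 shared no match to these motifs.

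Values are log2 expression values from GCRMA, a method that corrects each probe set for background by probe sequence and brings the arrays to a common distribution. They ran from 0.67 to 14.76 over the arrays. A probe set was called above background in a mouse when it exceeded the 95th percentile of the 80 probe sets for olfactory and vomeronasal receptors on that array (2.58, 2.91 and 2.86 in mice 1, 2 and 3). Where a gene had several probe sets, the one with the highest mean stood for it. Because every probe set has its own hybridisation efficiency, the level of one chain was not ordered against that of another, and the laminin-521 chains were compared with the other chains by detection, by spread and by the order of the mice.

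The tissue label was checked against marker genes. Every marker of podocytes (5 genes measured), glomerular endothelium (7) and mesangium (6) exceeded background in each mouse, and of 5 fibroblast markers the 3 genes Lum, Dpt and Col1a1 were below it in all. The other fibroblast markers were above it in every mouse, Pdgfra at 10.95, 10.42 and 10.35 and Dcn at 3.50, 3.14 and 3.23 in mice 1, 2 and 3. Genes of other nephron segments and of blood cells were also present and differed between mice. The summed linear signal of 8 proximal tubule markers was 885, 1141 and 2173 in mice 1, 2 and 3, that of 8 markers of loop, distal tubule and collecting duct was 6878, 15896 and 10639, and that of 7 leukocyte markers was 1143, 477 and 212. The tubular sums are led by their brightest genes. Aqp1, the brightest proximal tubule marker, varied only 1.18-fold. Of 7 proximal tubule markers above background 6 were highest in mouse 3, with a median difference of 2.51. Umod (12.47, 13.56 and 13.06) and Slc12a1 (10.09, 11.68 and 10.85) led the second sum, while Calb1 (3.80, 3.64 and 5.55) was lowest in mouse 2. Aqp2 and Aqp3 were not above background in every mouse. The array of mouse 2 stood apart in its 18 bacterial and phage hybridisation controls, all of which were highest there, by a median of 0.54.

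All 3 laminin-521 chains were far above background in every mouse. Of the 6 other chains, Lama2, Lama3, Lama4 and Lamb1 were above it in all mice, and Lama1 and Lamb3 were below it in all. In total 7 of the 9 chains were detected, against 58.3% of all genes on the array.

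Lama5, which encodes the alpha chain of laminin-521 and laminin-511, was at 7.41, 7.73 and 7.60 in mice 1, 2 and 3 (mean 7.58 ± 0.16, SD, n = 3). These values lay 4.74 to 4.83 above the background of their arrays. Mouse 2 was highest and mouse 1 lowest, a range of 1.24-fold. A second probe set of Lama5 was at 7.00, 7.38 and 7.00, again highest in mouse 2. Mice 1 and 3 had the same deposited value on it, so its spread rests on mouse 2 alone. The third probe set was below background in all mice (2.48, 2.76 and 2.81).

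Lamb2, which encodes the beta2 chain that sets laminin-521 apart from laminin-511, was read by 1 probe set. It was at 9.62, 9.83 and 9.62 in mice 1, 2 and 3 (9.69 ± 0.12, SD, n = 3). Mouse 2 was highest by 0.21, and mice 1 and 3 had the same deposited value, so that the SD of Lamb2 rests on mouse 2 alone. Ties of this kind occurred in 2.18% to 2.49% of probe sets per pair of arrays.

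Lamc1 encodes gamma1, the gamma chain of most laminins, and it therefore belongs to laminin-521 and to laminins with the other chains alike. It was at 8.46, 8.73 and 8.65 in mice 1, 2 and 3 (8.61 ± 0.14, SD, n = 3), with mouse 2 highest and mouse 1 lowest. A dim probe set of Lamc1 differed from this one. It was at 2.53, 3.27 and 3.74, above background in 2 of 3 mice, with a range of 2.31-fold and mouse 3 highest.

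Lamb1, which encodes the beta1 chain of the immature glomerular basement membrane and of mesangial laminins, was also far above background, at 9.87, 9.74 and 9.92 in mice 1, 2 and 3 (9.84 ± 0.10, SD, n = 3). Mouse 2 was lowest. A second bright probe set of Lamb1 was at 8.89, 8.83 and 9.06 and had mouse 2 lowest too. The third lay at the background, just above it in all mice (2.61, 2.91 and 2.89), with mouse 1 lowest, and the fourth was below background in all (1.58, 1.58 and 1.99).

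Among the other alpha chains, Lama4, the alpha chain of endothelial and mesangial laminins, was at 6.67, 6.57 and 6.67 in mice 1, 2 and 3 (6.64 ± 0.06, SD, n = 3). Mouse 2 was lowest by only 0.10, a range of 1.07-fold over the mice. Lama3, which encodes the alpha chain of the epithelial laminin-332, was at 5.93, 5.61 and 5.82 (5.78 ± 0.16, SD, n = 3), with mouse 2 lowest. Its second probe set was below background in all mice (2.22, 1.94 and 2.21), as was that of Lama4 (1.73, 1.74 and 2.06).

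Lama2, which encodes the alpha chain of muscle and nerve laminin and is also found in the mesangial matrix, was close to background. It was at 3.65, 3.17 and 3.71 in mice 1, 2 and 3 (3.51 ± 0.30, SD, n = 3), only 0.26 above the background in mouse 2. With the 99th percentile of the receptor probe sets as background, which was 3.89 in mouse 2, Lama2 was no longer above background in that mouse, and 6 chains remained detected in all mice. Of the chains above background it had the largest SD and the widest range, 1.45-fold.

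The remaining chains gave no signal above background. Lama1, which encodes the alpha1 chain of the embryonic laminin-111, was at 2.17, 1.88 and 1.89 in mice 1, 2 and 3, and Lamb3, which encodes the beta chain of laminin-332, was at 1.73, 1.59 and 1.54. Each was read by 1 probe set, so these values show only that the probe set was not above background. Lamc3, a gamma chain that was not a member, was also below background in all mice (2.47, 2.57 and 2.83).

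**Figure D1:**
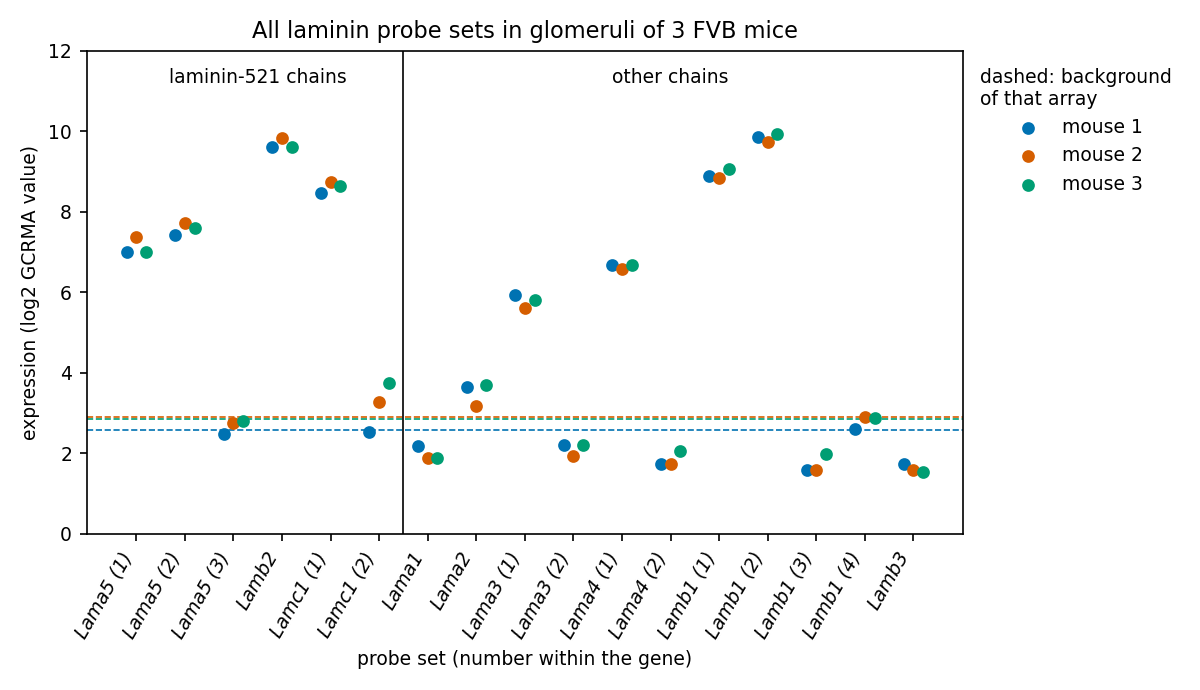
Log2 GCRMA expression value (vertical axis) of all 17 laminin probe sets (horizontal axis, numbered within a gene), 1 point per mouse, with the background of each array as a dashed line. Background was exceeded in every mouse by 4 of 6 probe sets of laminin-521 chains and by 6 of 11 probe sets of other chains.

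The spread between mice was then set beside that of all genes. The median SD was 0.139 for the 3 laminin-521 chains and 0.129 for the 4 other chains above background, against 0.157 over all 10610 genes above background. These medians hold only the chains that passed the background filter. Without mouse 1 they were 0.092 and 0.141, without mouse 2 they were 0.129 and 0.039, and without mouse 3 they were 0.192 and 0.159, so the order of the chain groups in spread turned with the mice used. Of all genes above background, 50.2% had a smaller SD than Lama5, 37.4% than Lamb2, 43.9% than Lamc1, 27.4% than Lamb1, 51.8% than Lama3 and 80.5% than Lama2. The figure for Lama4 was 12.1%. No laminin chain had a range of 2-fold or more, which 5.94% of genes above background had.

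A test for excess variance compared the variance of every gene over the mice with the distribution that limma fitted across all 10610 genes. None of the 7 chains was called, with adjusted p-values of 0.97 and above (Benjamini-Hochberg over all genes tested). At an unadjusted p under 0.05 there was also no chain, against 4.65% of all genes. The smallest unadjusted p was 0.30, for Lama2. The test called 0.00% of all genes (0 genes, with 493 genes at an unadjusted p under 0.05), so the absence of a call says little about any chain.

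**Figure D2:**
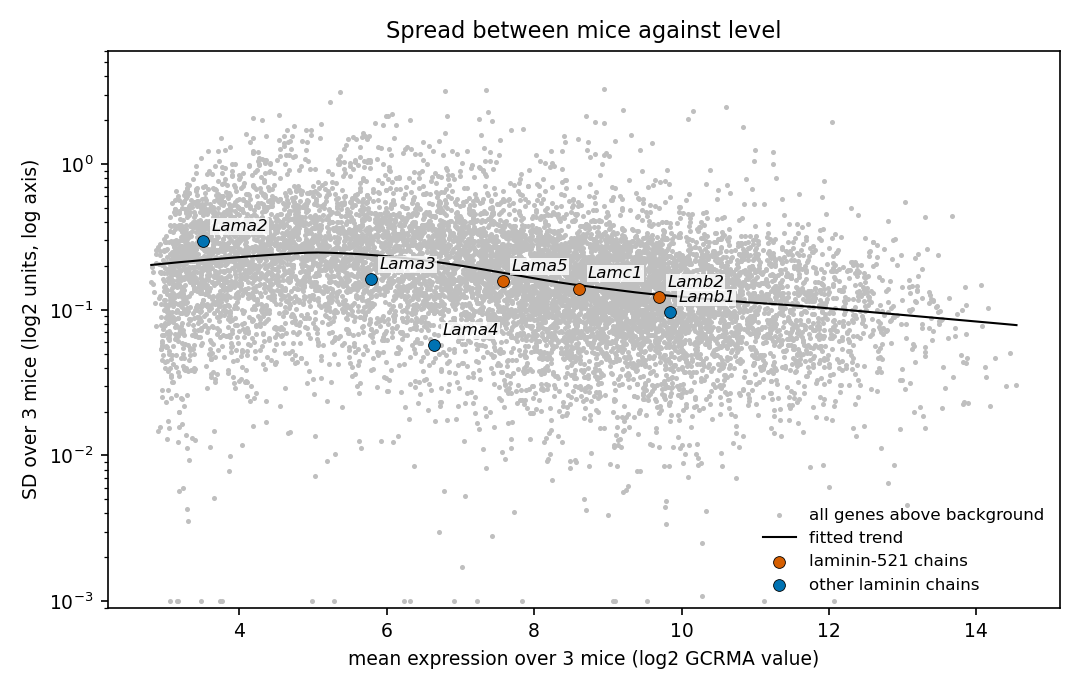
SD over the 3 mice (vertical axis, log2 units on a log axis, with smaller SDs drawn at the lower edge) against mean log2 GCRMA expression value (horizontal axis) for the 10610 genes above background in grey, with the fitted trend as a line. The 7 laminin chains lie inside the cloud of all genes, with Lama2 highest (0.30) and Lama4 lowest (0.06).

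The laminin-521 chains and the other chains placed mouse 2 at opposite ends, while the order of mice 1 and 3 was not uniform. Of the 4 other chains above background, 2 were highest in mouse 1 and 2 in mouse 3. All 3 laminin-521 chains were highest in mouse 2, as were 28.6% of all genes above background, and all 4 other chains above background were lowest in mouse 2, as were 35.0% of all genes. Relative to the mean of mice 1 and 3, mouse 2 was higher by 0.22 for Lama5, 0.21 for Lamb2 and 0.18 for Lamc1. It differed by −0.51 for Lama2, −0.26 for Lama3, −0.16 for Lamb1 and −0.10 for Lama4. Over all genes above background the median of this difference was −0.02.

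No error can be put on the value of a single mouse, so the gap between the other mice was used as a rough yardstick. It favours mouse 2, because mouse 2 was the highest or the lowest mouse for each of these chains. For Lama5 this gap between mice 1 and 3 was 0.18, against 0.22 for the distance of mouse 2 from their mean, and for Lamc1 it was 0.19, against 0.18. For Lamb2, Lama2, Lama3, Lama4 and Lamb1 the gap between mice 1 and 3 was smaller (0.00, 0.06, 0.11, 0.00 and 0.06) than the distance of mouse 2. The gap of Lamb2 is a tie of deposited values. The mice form 1 group without a treatment, so no test of the difference between the chain groups was available.

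For the beta chains, which distinguish the mature from the immature membrane, values centred on each gene's mean gave a Lamb2 minus Lamb1 difference of −0.10, 0.25 and −0.15 in mice 1, 2 and 3. Lamb2 thus lay higher relative to Lamb1 in mouse 2 than in the other mice, with a range of 0.40 on the log2 scale or 1.32-fold. The same difference of Lama5 minus Lama4 was −0.20, 0.21 and −0.01. The mean of the laminin-521 chains minus the mean of the 4 other chains was −0.22, 0.31 and −0.09, a range of 1.44-fold. The 4 other chains include Lama2, which differed most in mouse 2 (−0.51) and lay only 0.26 above background there.

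The order was also read from each probe set alone. Of the laminin-521 probe sets above background in all mice, 4 of 4 were highest in mouse 2, against 29.2% of all such probe sets. Of the probe sets of other chains above background in all mice, 5 of 6 were lowest in mouse 2, against 35.1% of all, and the exception was the Lamb1 probe set at the background. Most of these probe sets already stood for their genes, so both counts largely repeat the order given above. The probe sets added here were the second of Lama5, the second bright one of Lamb1 and the Lamb1 probe set at the background. Averaged over the probe sets above background, the chains gave 3 of 3 laminin-521 chains highest and 3 of 4 other chains lowest in mouse 2. Averaged over all probe sets of a gene, the counts were 2 of 3 and 3 of 4. After quantile normalisation or centring of the arrays they were 3 of 3 and 4 of 4.

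**Figure D3:**
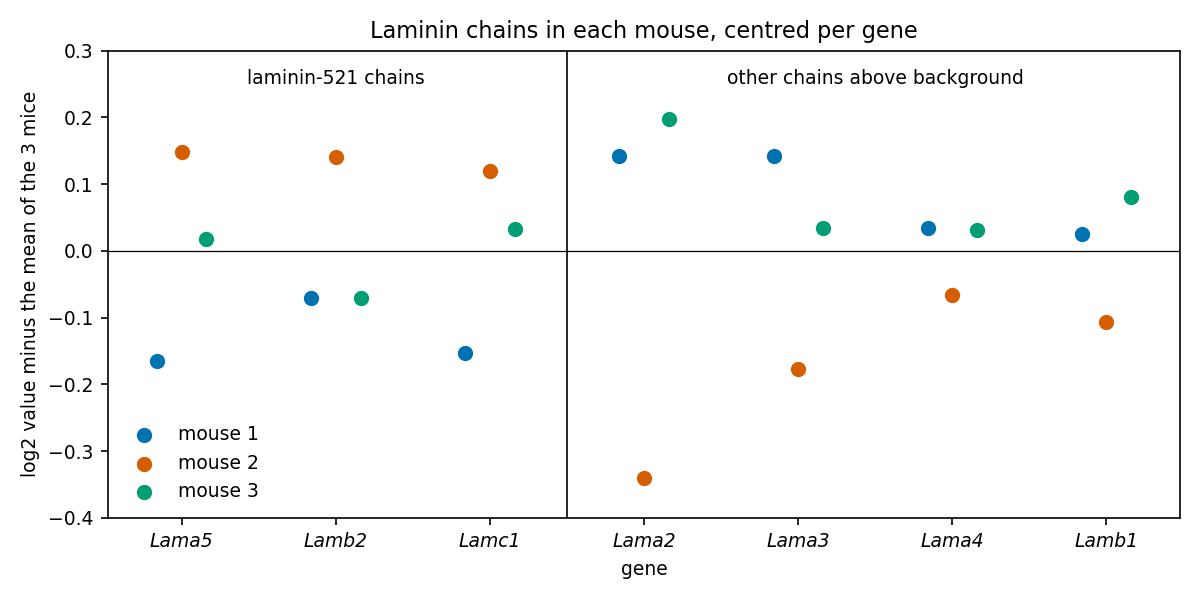
Log2 value minus the mean of the 3 mice (vertical axis) for the 7 laminin chains above background (horizontal axis), 1 point per mouse. Mouse 2 is the highest point of the 3 laminin-521 chains and the lowest point of the 4 other chains.

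Other features of the arrays differed in mouse 2 as well, and some of them differed in mouse 3 too. All 18 hybridisation controls were highest in mouse 2 (median 0.54). Of 5 loop, distal tubule and collecting duct markers above background 4 were highest there, with a median difference of 1.21, as were 3 of 3 smooth muscle markers (0.51), 3 of 4 parietal epithelial markers (0.26) and 3 of 5 podocyte markers (0.12). Mouse 3 was lowest for 5 of 5 podocyte markers (median −0.24) and for 3 of 3 smooth muscle markers (−0.45). The podocyte markers thus differed more in mouse 3 than in mouse 2. Endothelial markers were highest in mouse 2 for 0 of 7 and lowest there for 3 of 7 (median −0.11). Mesangial and pericyte markers were lowest in mouse 2 for 4 of 6 (median −0.07). Over all genes above background, 28.6% were highest and 35.0% lowest in mouse 2. The summed linear signal was 45867, 46659 and 41922 in mice 1, 2 and 3 for the podocyte markers, 34618, 29974 and 30474 for the endothelial markers and 32784, 32257 and 33031 for the mesangial markers. For the smooth muscle markers it was 2285, 2849 and 1730 in mice 1, 2 and 3. The 3′ minus 5′ difference of the actin control, a sign of RNA quality, was 1.49, 1.81 and 2.05, and that of Gapdh was 0.48, 1.08 and 0.92. The part of these features in the order of the laminin chains was not tested.

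The genes that bind, link or modify laminins were read from a list of 42 genes ordered by role. Of these, 38 were measured, 32 exceeded background in every mouse, against 58.3% of all genes, and 5 were below it in all. None of the 32 passed the limma variance test (adjusted p-values of 0.97 and above), and none was under 0.05 unadjusted, against 4.65% of all genes. In mouse 2, 17 of 32 were highest and 8 were lowest, against 28.6% and 35.0% of all genes above background. Mouse 3 was lowest for 15 of 32, against 3361 of all 10610 genes above background. These counts and the values below are those of the brightest probe set of each gene. Of 18 partner genes with several probe sets above background in all mice, 10 had all of them highest in the same mouse.

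Linkers and co-polymers of the basement membrane were all detected (10 of 10), and 8 of 10 were highest in mouse 2, with a median difference of 0.19. Of all genes above background, 28.6% were highest in mouse 2. Mouse 3 stood apart as much, being lowest for 7 of 10 with a median difference of −0.19, whereas all 3 laminin-521 chains were lowest in mouse 1. The type IV collagen genes, whose products form the second network of the sheet, were highest in mouse 2 for 6 of 6 chains, by 0.12 to 0.53. Col4a3, Col4a4 and Col4a5, which encode the chains of the mature glomerular network, were at 11.66, 11.80 and 11.54, at 12.84, 12.98 and 12.66, and at 11.72, 11.86 and 11.76 in mice 1, 2 and 3. A second probe set of Col4a1 (10.32, 10.20 and 10.18), Col4a3 (10.55, 10.31 and 9.95) and Col4a5 (9.44, 9.17 and 9.09) was highest in mouse 1. Col4a2, at 10.79, 11.22 and 10.59, had among the largest SDs of this role (0.32), as did Nid2 (9.13, 9.01 and 8.51; 0.33). Agrn, which encodes agrin, the heparan sulfate proteoglycan of the glomerular basement membrane, was at 10.91, 11.10 and 11.02 and followed the laminin-521 chains. Nid1, which encodes the nidogen that ties the gamma1 chain to type IV collagen, went the other way, at 12.08, 11.86 and 11.95 with mouse 2 lowest. Col4a6 was just above background, at 3.14, 3.27 and 3.10.

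Of 7 genes for integrin receptor chains, 5 were above background in all mice, against 58.3% of all genes. Itga3 and Itgb1 encode the alpha3beta1 integrin by which podocytes hold on to laminin-521. Itga3 was at 10.14, 10.29 and 10.40 in mice 1, 2 and 3, and Itgb1 at 11.50, 11.40 and 11.37, so on these probe sets neither was highest or lowest in mouse 2. A dimmer probe set of Itga3 (4.61, 3.66 and 4.50) and of Itgb1 (7.66, 7.49 and 7.55) was lowest there. Itga6 was highest in mouse 2 (9.64, 10.10 and 9.77). Itga1, whose product pairs with beta1 on mesangial cells, was lowest there on its brightest probe set (8.43, 8.31 and 8.84) but lowest in mouse 1 on the other (8.30, 8.41 and 8.71). The dim Itga7 was lowest in mouse 2 (3.74, 3.52 and 4.06). Itgb4, the partner of alpha6 in hemidesmosomes, was below background in all mice (2.10, 2.13 and 2.13), and Itga2 was above it in 1 of 3.

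All 6 other receptor genes were above background, and 5 of 6 were highest in mouse 2, most by less than 0.1. Mouse 3 was lowest for 5 of 6 (median difference −0.06). Dag1, which encodes dystroglycan, was at 12.56, 12.66 and 12.43, and Bcam, which encodes the Lutheran glycoprotein, a receptor of the alpha5 chain, was at 8.01, 8.25 and 8.59 with mouse 3 highest. Rpsa (12.16, 12.16 and 12.11) and the syndecan gene Sdc1 (8.86, 8.88 and 8.81) had the smallest SDs, at 0.03 each. The other Sdc1 probe sets above background varied more, at 7.00, 7.13 and 7.39 (SD 0.20) and at 6.35, 5.96 and 6.38 (SD 0.23), and neither was highest in mouse 2. A second bright probe set of Sdc2, another syndecan gene, was lowest there (10.52, 10.41 and 10.55).

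Of 8 enzymes of dystroglycan glycosylation 4 had a probe set, and all 4 were above background. Pomgnt1 was at 6.75, 6.92 and 6.68, Pomt1 at 3.90, 4.13 and 4.30, Pomt2 at 5.51, 5.43 and 6.04, and B4gat1 at 9.12, 8.74 and 8.77. Mice 1, 2 and 3 each had the highest value for at least 1 of these enzymes.

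Netrins share the N-terminal domain of laminins, and 4 of 6 were above background, against 58.3% of all genes. Ntn4, whose product binds laminin gamma chains and can break up the laminin network, was at 12.61, 12.40 and 12.42 with mouse 1 highest. Ntng2 was at 4.91, 4.67 and 4.58, Ntn1 at 3.45, 4.10 and 4.16, and Ntng1 near background at 2.61, 3.13 and 3.05.

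Of 5 genes for proteases that cut laminins 3 were above background, against 58.3% of all genes, and Mmp9 and Tll1 were below it in all mice. Mmp2, which encodes gelatinase A, was at 9.94, 9.92 and 9.98 (SD 0.03), and its second probe set was highest in mouse 2 (9.22, 9.38 and 9.11). Mmp14, which encodes its membrane-bound activator, was at 9.42, 9.18 and 9.34. Bmp1 was at 4.50, 4.89 and 4.79 with mouse 2 highest, and its second probe set above background, at 3.38, 3.13 and 3.44, had mouse 2 lowest.

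**Figure D4:**
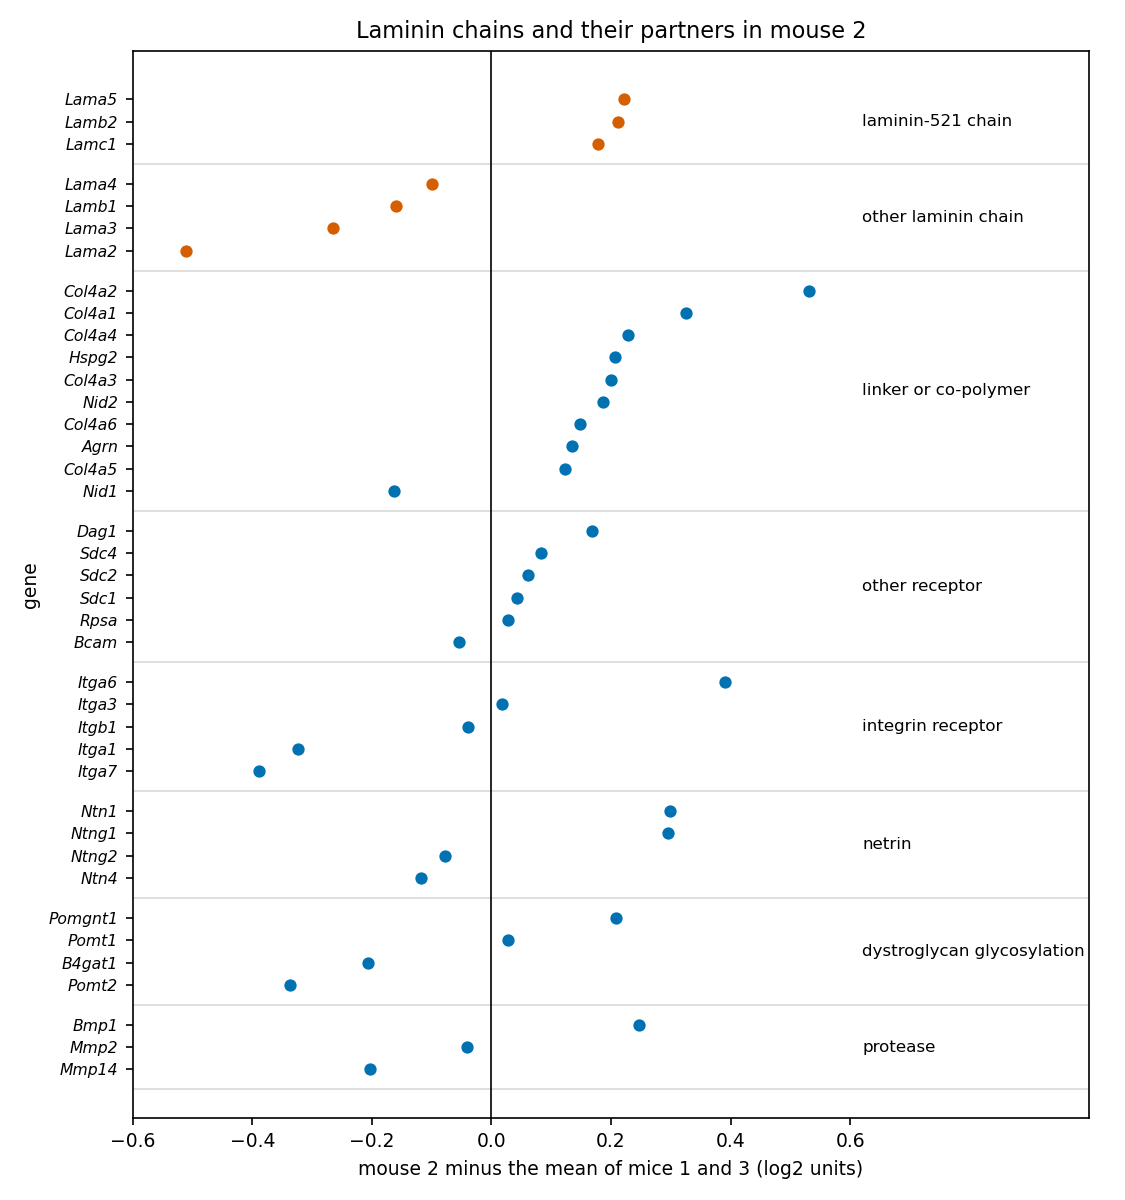
Value in mouse 2 minus the mean of mice 1 and 3 (horizontal axis, log2 units) for the 7 laminin chains (orange) and 32 partner genes (blue) above background, 1 point per gene, ordered by role (vertical axis). The 3 laminin-521 chains and 9 of 10 linkers and co-polymers lie to the right of 0, and the 4 other laminin chains and Nid1 lie to the left.

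For each chain above background, the partner gene with the closest values was sought, as the Euclidean distance between the 3 centred log2 values. For Lamc1 this was Agrn (distance 0.06), for Lama5 it was Bmp1 (0.08) and for Lamb2 it was Pomgnt1 (0.05). For Lama3 it was Mmp14 (0.06), for Lama4 and Lamb1 it was Mmp2 (0.06 and 0.10), and for Lama2 it was Itga7 (0.21). With only 3 mice, 1.48% to 10.1% of all genes above background lay at least as close to the chain as its closest partner, so the likeness is a description of these arrays and sets no partner apart.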

How the data were processed

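The deposited values were log2 expression values from 1 Affymetrix array per mouse (3 mice), summarised by the authors with GCRMA, per the submitters' processing notes. The log2 scale was read from the values. The GCRMA version, the genome build and the arrays normalised together are not given in the sources used here. Gene names came from the platform annotation. Of 45101 probe sets, 34958 had 1 symbol, 932 had several and were not used, and 9211 had none, and 34754 of those with 1 symbol matched RefSeq gene identifiers. There were 0 unused sample columns. Signal over background and the number of arrays limit precision.

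The probe set with the highest mean stood for a gene. Excess variance was tested with limma 3.58.1 in R 4.3.3 (robust fit, trend on mean level, one-sided, Benjamini-Hochberg at 0.05), checked on simulated data, and the other values came from Python 3.11.15. The limma test covers genes above background in all 3 mice. P-values measure only the spread between these mice. Alternatives were the mean over probe sets, quantile normalisation, centring, other backgrounds, no filter, other variance priors and each mouse left out. The mean over probe sets above background was added after seeing the data. All partner genes and chains could be named, and values are given for key receptors and linkers and for the 2 smallest and 2 largest SDs of each role. Members and lists were chosen with earlier results of these data known.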

Additional observations from a re-analysis of the deposited data

How the results depend on the processing

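The limma variance test called 0 genes under every alternative run, which says nothing about stability. Detected chains fell from 7 to 6 with the 99th percentile as background, which lost Lama2, and detected partner genes ranged from 29 to 32. The SD of Lamc1 rose from 0.14 to 0.36 with the mean over all its probe sets, which adds its dim probe set. With 1 mouse left out, the SD of Lamb2 ranged from 0 to 0.15, because its values in mice 1 and 3 are equal. Without mouse 2 the SD fell to 0.039 for Lama2, 0.077 for Lama3, 0.0028 for Lama4 and 0.040 for Lamb1, and without mouse 1 it fell to 0.061 for Lamc1 and 0.092 for Lama5. The median difference of mouse 3 from the others for the laminin-521 chains ranged from −0.13 to 0.18 when a mouse was left out, and that of mouse 1 for the other chains from −0.026 to 0.23, so neither has a settled sign. The median difference of mouse 2 stayed positive for the laminin-521 chains (0.13 to 0.27 without mouse 1 or 3, 0.19 to 0.23 under the other settings run) and negative for the other chains (−0.23 to −0.20 and −0.24 to −0.16). Without mouse 1 or 3 its sign was fixed in advance, because mouse 2 was the highest or the lowest mouse for each of these chains. Leaving out a mouse therefore says nothing about the stability of that sign. The other backgrounds and the run without a filter left the values of the laminin-521 chains unchanged, so they do not test its stability for those chains either. No paired analysis was possible because the mice form 1 group. With 3 arrays and a floor set by 80 probe sets, Lama2 and the dim probe sets of Lamc1 and Lamb1 are at the limit of detection.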
